A study of Mus musculus with 6 samples.

Results

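Matricellular and glycoprotein matrix genes encode secreted proteins that bind cells, growth factors and the fibres of the extracellular matrix. They were read here across bladder tissue of mice in 3 groups of 2 expression arrays. A list of 10 such genes was taken, with every probe set whose array annotation gave exactly 1 of their symbols. In this annotation 8 of the 10 had a probe set: Fn1, Tnc, Postn, Thbs1, Thbs2, Sparc, Fbln1 and Fbln2. The other 2 were not analysed here. The 8 genes had 18 of the 34945 named probe sets and were 8 of 18193 genes tested. Of several probe sets of a gene, the one with the highest mean signal over the 6 arrays gave its main value. Normal urothelium was taken from wild-type mice. Double transgene mice gave both lesions, carcinoma in situ and invasive carcinoma, with the genotype given as H-ras+/-, p53-/-. All mice were of the FVB/N strain and 8 months old, and no agent was named for any group. Carcinoma in situ is a flat lesion that stays within the epithelium, whereas invasive carcinoma has grown into the wall of the bladder. The labels did not name the promoter of the transgene, did not say whether animals were pooled, and did not tie an array to an animal. P-values therefore rest on a spread between arrays that may be technical. The lesions also differ in genotype from the normal group, so genotype and lesion cannot be told apart there, whereas the lesions share their genotype.

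The extracellular matrix is built on collagen, and glycoproteins link it to cells. Fibronectin, tenascin-C and periostin carry sites for integrins, the receptors through which cells grip the matrix. Thrombospondins and SPARC are called matricellular because they tune adhesion, growth factors and fibre assembly more than they bear load. Fibulins join basement membranes and elastic fibres. In most adult epithelia these genes are transcribed mainly by stromal cells beneath the epithelium, and several are known for high levels in wounds and in tumour stroma.

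Cells were cut from stained frozen sections by laser capture, and Affymetrix arrays read each transcript near its 3' end. Values are log2 signals normalized by the authors with RMA, in which a difference of 1 is a doubling of the signal. The array medians lay between 6.07 and 6.14, and the signals of different probe sets cannot be set against each other. The paired arrays were unequally close. The standard deviation of their log2 difference over genes was 0.22 in carcinoma in situ, 0.42 in invasive carcinoma and 0.69 in normal urothelium. Transcripts of the sex chromosomes differed within and between groups. Xist, read from the inactive X, was 6.85 and 13.37 in normal urothelium, 13.17 and 13.33 in carcinoma in situ, and 10.28 and 6.43 in invasive carcinoma. The Y-linked Kdm5d read 8.28 and 7.62 in normal urothelium, 2.90 and 2.84 in carcinoma in situ, and 6.58 and 5.96 in invasive carcinoma. Both in situ arrays thus had high Xist and low Kdm5d, normal array 1 and invasive array 2 the opposite, and normal array 2 and invasive array 1 had Xist beside Kdm5d. The part of sex in the results was not tested. Calls that changed without normal array 2 and invasive array 1 are given with each gene, from a limma fit whose spread came from the 2 in situ arrays alone.

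Markers fixed for the tissue and its neighbours described what the laser had lifted. The urothelial genes Upk2 and Upk3a, which form plaques on the luminal membrane, and the basal keratin gene Krt5 were bright in normal urothelium. Upk2 read 12.54 and 11.66 in the normal arrays, 9.49 and 9.56 in carcinoma in situ, and 7.998 and 8.10 in invasive carcinoma. Krt5 read between 11.76 and 13.68 on all 6 arrays. The summed linear signal of 12 urothelial markers was 119915 and 84739 in the normal arrays and 86515 and 89854 in the in situ arrays. In the invasive arrays it was 63994 and 48429. Of the 12, 5 were called lower and 0 higher in invasive carcinoma than in normal urothelium (7.46% lower among all genes). In carcinoma in situ against normal urothelium 3 fell and Trp63 rose, and between the lesions 3 fell and Krt20 rose. The summed linear signal of 10 fibroblast markers was 5930 and 3887 in the normal arrays, 1486 and 1439 in carcinoma in situ, and 27032 and 48780 in invasive carcinoma. The sums were highest in the invasive arrays and lowest in the in situ arrays, but the medians of the 10 markers overlapped between normal and in situ arrays. Bright markers weigh most in such sums. Dcn read 11.79 and 11.001 in the normal arrays and 6.32 and 6.50 in the in situ arrays, whereas Col1a1 read 7.07 and 6.85, and 6.71 and 6.60. Of the 10 fibroblast markers, 3 read under 6 on both normal arrays, 3 on both in situ arrays and 0 on both invasive arrays. For 10 smooth muscle markers the sums were 4631 and 2106 in normal urothelium, 1430 and 1293 in carcinoma in situ, and 8086 and 14800 in invasive carcinoma. The medians of these markers overlapped between the normal arrays (7.57 and 6.68) and the invasive arrays (6.82 and 7.20). For 10 macrophage markers they were 1227 and 2066 in normal urothelium, 4345 and 4282 in carcinoma in situ, and 13858 and 25228 in invasive carcinoma. For 10 endothelial markers they were 544 and 603 in normal urothelium, 1742 and 1692 in carcinoma in situ, and 1839 and 2279 in invasive carcinoma. In such captured tissue, a change in the number of cells of a type and a change in RNA per cell cannot be told apart.

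**Figure D1:**
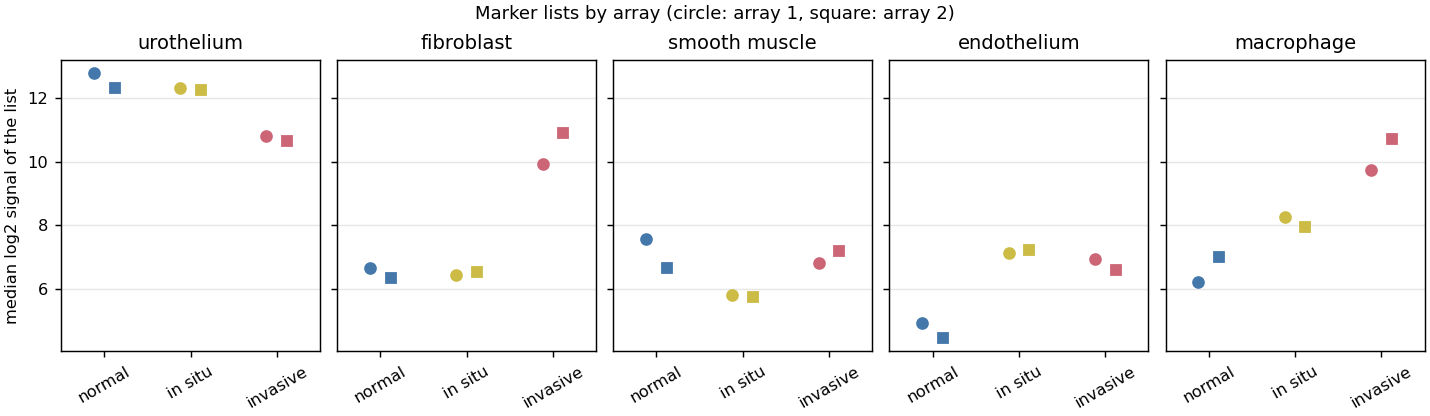
Median log2 signal of 5 marker lists on each array (vertical axis) in normal urothelium, carcinoma in situ and invasive carcinoma, with a circle for array 1 and a square for array 2. The fibroblast medians were 6.66 and 6.37 in the normal arrays, 6.45 and 6.54 in the in situ arrays, and 9.93 and 10.90 in the invasive arrays.

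The matrix genes were raised mainly in invasive carcinoma. Against normal urothelium 6 of 8 rose and 0 fell (Fbln2, Sparc, Postn, Fn1, Tnc and Thbs2). Between invasive carcinoma and carcinoma in situ 5 of 8 rose and 0 fell. Carcinoma in situ differed from normal urothelium in 1 of 8, Sparc, which rose. Calls were made with limma at a Benjamini-Hochberg adjusted p under 0.05 over 18193 genes. Among all genes it called 12.6% higher in invasive carcinoma than in normal urothelium, 5.74% higher in carcinoma in situ than in normal urothelium, and 4.18% higher in invasive carcinoma than in carcinoma in situ. It called 7.46%, 3.04% and 1.31% lower in the same 3 comparisons. The median change of the 8 genes was 3.40, 0.25 and 2.92 log2 units in these comparisons, against 0.00023, 0.0070 and -0.027 over all genes. Both invasive arrays lay above all 4 other arrays for 7 of 8 genes, as for 17.2% of all genes. Each stage lay above the one before without overlap for 2 of 8, Postn and Sparc, as for 8.59% of all genes. Without either in situ array, or with both averaged to 1 sample, only Fbln2 kept its call between the lesions. Far fewer of all genes were called there too, and the changes of the called members moved little. Without in situ array 1 and array 2 they were 3.65 and 3.75 for Tnc (3.70 with both) and 3.49 and 3.72 for Postn (3.61). For Sparc they were 2.24 and 2.16 (2.196), and for Fbln2 6.04 and 5.92 (5.98). The rise of Sparc in carcinoma in situ was not called under those 3 settings either.

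**Figure D2:**
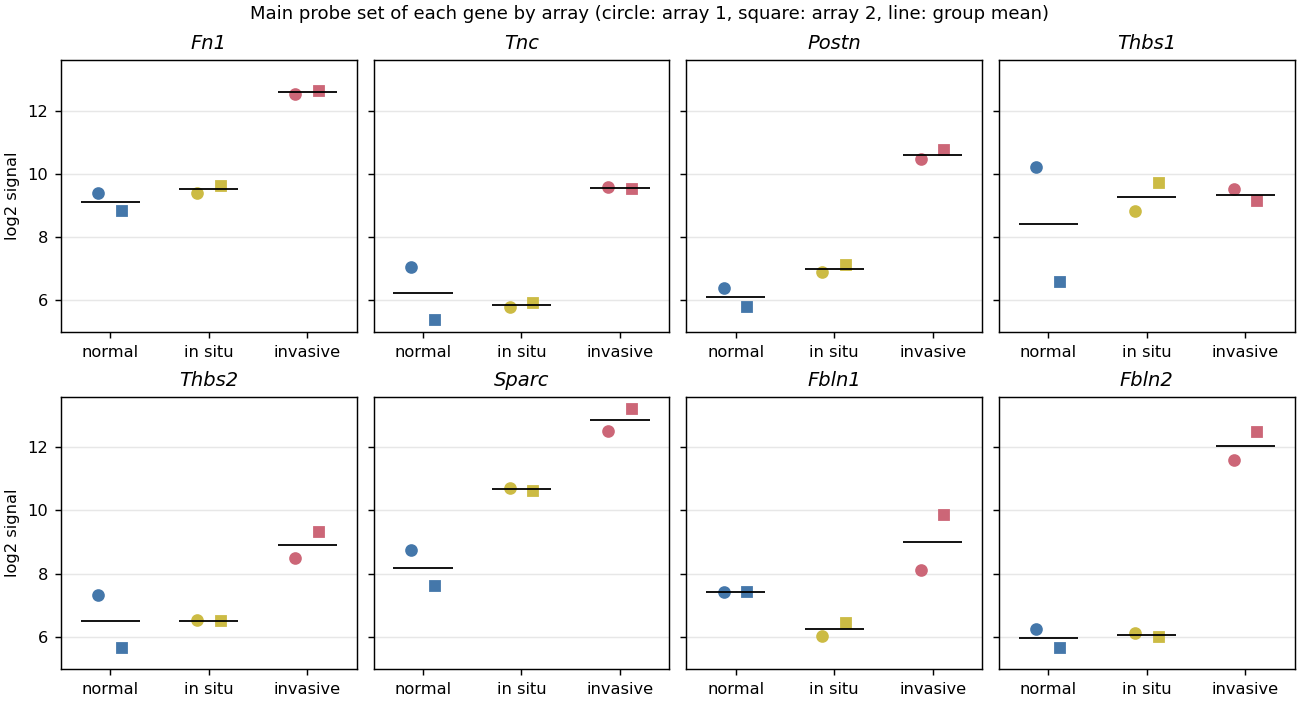
Log2 signal of the main probe set of each gene on each array (vertical axis) by group, with a circle for array 1, a square for array 2 and a line at the group mean. Panels show different probe sets, so heights are to be compared within a panel. The invasive arrays lie above the other 4 in every panel but that of Thbs1, whose normal arrays lie 3.63 apart.

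**Figure D3:**
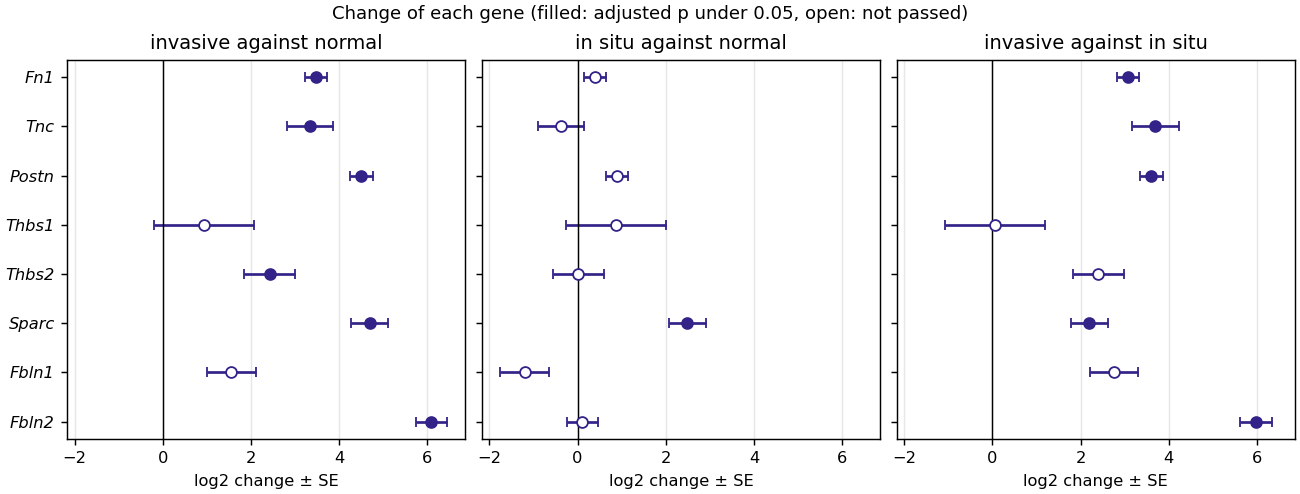
Log2 change with its standard error for each gene in the 3 comparisons (2 arrays per group). Filled points passed an adjusted p of 0.05, which 6, 1 and 5 of 8 genes did from left to right.

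The 3 measured adhesive glycoproteins rose in invasive carcinoma against both other groups, and none was called in carcinoma in situ against normal urothelium. Fn1 encodes fibronectin, which cells assemble into fibrils that other matrix proteins attach to. Fn1 read 9.40 and 8.81 in normal urothelium, 9.39 and 9.63 in carcinoma in situ, and 12.53 and 12.64 in invasive carcinoma. The normal and in situ arrays overlapped and the invasive arrays stood clear of both. Fn1 was 11.1-fold higher in invasive carcinoma than in normal urothelium (3.48 ± 0.24 log2, SE, adjusted p = 0.000913) and 8.44-fold higher than in carcinoma in situ (3.08 ± 0.24, adjusted p = 0.00319). The change in carcinoma in situ against normal urothelium was 0.40 ± 0.24 (adjusted p = 0.393).

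Tnc encodes tenascin-C, a large glycoprotein that is scarce in most adult tissues and appears in wounds and tumours. Tnc read 7.06 and 5.37 in normal urothelium, 5.80 and 5.90 in carcinoma in situ, and 9.58 and 9.51 in invasive carcinoma. The in situ arrays lay between the 2 normal arrays, which were 1.69 apart, while the invasive arrays differed by 0.071. Tnc was 10.1-fold higher in invasive carcinoma than in normal urothelium (3.33 ± 0.52, adjusted p = 0.0101) and 13.0-fold higher than in carcinoma in situ (3.70 ± 0.52, adjusted p = 0.0175). Without invasive array 1 or array 2 the first call was lost (adjusted p = 0.0632 and 0.0681), as was the second (0.0889 and 0.122), although the changes stayed between 3.30 and 3.73. Without in situ array 1 or array 2 the second call was also lost (adjusted p = 0.178 and 0.174). Against normal urothelium, carcinoma in situ gave -0.37 ± 0.52 (adjusted p = 0.742), and without normal array 2 it was lower by limma (-1.21, adjusted p = 0.0106). That difference was also called without normal array 2 and invasive array 1 (-1.21), in a fit whose spread came from the 2 in situ arrays alone. The rise of Tnc in invasive carcinoma against normal urothelium was 2.45 in that fit.

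Postn encodes periostin, which binds fibronectin, tenascin-C and collagen. Postn read 6.39 and 5.80 in normal urothelium, 6.88 and 7.11 in carcinoma in situ, and 10.46 and 10.74 in invasive carcinoma. No groups overlapped, and the step up to the invasive arrays was the larger one. Postn was 22.7-fold higher in invasive carcinoma than in normal urothelium (4.50 ± 0.25, adjusted p = 0.000637) and 12.2-fold higher than in carcinoma in situ (3.61 ± 0.25, adjusted p = 0.00236). In carcinoma in situ against normal urothelium it changed by 0.90 ± 0.25 without passing (adjusted p = 0.0959). It passed without normal array 1 (1.196). It also passed without normal array 2 and invasive array 1 (0.60), in a fit whose spread came from the 2 in situ arrays alone. Without in situ array 1 or array 2, the calls of Postn between the lesions fell just short (adjusted p = 0.0540 and 0.0529), as did those of Fn1 (0.0661 and 0.0584).

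Sparc was the member that also rose in carcinoma in situ. It encodes a collagen-binding protein that weakens cell adhesion and takes part in collagen deposition. Sparc read 8.73 and 7.61 in normal urothelium, 10.70 and 10.62 in carcinoma in situ, and 12.51 and 13.21 in invasive carcinoma. The 3 groups did not overlap, and the steps were of similar size. Sparc was 25.8-fold higher in invasive carcinoma than in normal urothelium (4.69 ± 0.42, adjusted p = 0.00185). It was 5.63-fold higher in carcinoma in situ than in normal urothelium (2.49 ± 0.42, adjusted p = 0.0252) and 4.58-fold higher in invasive carcinoma than in carcinoma in situ (2.196 ± 0.42, adjusted p = 0.0444). In carcinoma in situ against normal urothelium 1 further Sparc probe set gave 2.23 ± 0.52 and the other -0.39 ± 0.21. Neither passed in a limma test of all named probe sets (adjusted p = 0.0635 and 0.337). The call between the lesions lay at the threshold and was not kept under 10 of 16 alternative settings (highest adjusted p = 0.323). It was lost without in situ array 1 (adjusted p = 0.290) or array 2 (0.323) and without invasive array 1 (0.0876) or array 2 (0.25). The call in carcinoma in situ was lost without in situ array 1 (0.215) or array 2 (0.199) and fell short without either invasive array (0.0528). Beside this rise in carcinoma in situ, 1 of 10 fibroblast markers rose there, Pdgfrb (2.08 ± 0.44, adjusted p = 0.0443), and 1 of 10 fell, Dcn, which encodes decorin (-4.99 ± 0.32, adjusted p = 0.00395). Col1a1 was among the 8 that did not pass (-0.31 ± 0.36, adjusted p = 0.684). In the same comparison 5 of 10 endothelial markers rose, among them Vwf (3.45 ± 0.24, adjusted p = 0.00438) and Cdh5 (3.04 ± 0.43, adjusted p = 0.0162), and 2 of 10 macrophage markers, Aif1 (2.16 ± 0.43, adjusted p = 0.0391) and Ctss (1.88 ± 0.27, adjusted p = 0.0169). Of 10 smooth muscle markers 1 rose and 1 fell. Among all genes 5.74% were called higher and 3.04% lower in that comparison. None of these lists was tested for a part in the rise of Sparc.

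Of the 2 measured thrombospondins, Thbs2 was called against normal urothelium and Thbs1 was not. Thbs2 encodes thrombospondin-2, an inhibitor of vessel growth that also shapes collagen fibrils. Thbs2 read 7.33 and 5.65 in normal urothelium, 6.53 and 6.49 in carcinoma in situ, and 8.49 and 9.33 in invasive carcinoma. The in situ arrays lay between the normal arrays, and the invasive arrays lay above both groups. Thbs2 was 5.35-fold higher in invasive carcinoma than in normal urothelium (2.42 ± 0.58, adjusted p = 0.0366). Against carcinoma in situ it was 2.40 ± 0.58 higher without passing (adjusted p = 0.0845), and without normal array 1 or array 2 this difference passed (adjusted p = 0.00652 in both). The call against normal urothelium was lost without invasive array 1 (adjusted p = 0.0865) or array 2 (0.196) and without either in situ array (0.0968). The difference of carcinoma in situ from normal urothelium was 0.018 ± 0.58 (adjusted p = 0.990). Without normal array 2 and invasive array 1 it was called lower (-0.82), and the difference between the lesions was called (2.82). The spread of that fit came from the 2 in situ arrays alone.

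Thbs1 encodes thrombospondin-1, which can activate latent TGF-beta and acts on cells through CD36 and CD47. Thbs1 read 10.22 and 6.58 in normal urothelium, 8.83 and 9.72 in carcinoma in situ, and 9.52 and 9.14 in invasive carcinoma. The normal arrays lay 3.63 apart and enclosed all 4 lesion arrays. No comparison passed, with changes of 0.93 ± 1.12 in invasive carcinoma against normal urothelium (adjusted p = 0.628), 0.87 ± 1.12 in carcinoma in situ against normal urothelium (0.711) and 0.060 ± 1.12 between the lesions (0.990). The direction against normal urothelium turned on which normal array was kept. Without normal array 1 Thbs1 was higher in invasive carcinoma (2.75, adjusted p = 0.00589) and in carcinoma in situ (2.69, adjusted p = 0.00905). Without normal array 2 it was lower in both (-0.88 and -0.94), and neither difference passed. Both passed only with invasive array 1 left out too (-1.07 and -0.94), in a limma fit whose spread came from the 2 in situ arrays alone. Normal array 1 was also the higher of the pair for Tnc, Thbs2 and Sparc, by 1.69, 1.68 and 1.12. The smooth muscle gene Myh11 read 8.87 in that array and 5.77 in normal array 2. Other smooth muscle markers were closer there: Tagln read 8.998 and 7.57, Acta2 10.97 and 10.14, Des 7.48 and 7.25, and Synm 7.65 and 7.55. Smtn went the other way, at 5.71 and 6.16. The part of smooth muscle in these gaps was not tested.

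Of the 2 fibulins, Fbln2 was called in both comparisons of invasive carcinoma and Fbln1 in none. Fbln2 encodes fibulin-2, a protein of basement membranes and elastic fibres that binds fibronectin and nidogen. Fbln2 read 6.25 and 5.65 in normal urothelium, 6.12 and 5.995 in carcinoma in situ, and 11.59 and 12.48 in invasive carcinoma. The normal and in situ arrays lay together near the array medians, and the invasive arrays lay over 5 log2 units higher. Fbln2 was 68.0-fold higher in invasive carcinoma than in normal urothelium (6.09 ± 0.35, adjusted p = 0.000649) and 63.1-fold higher than in carcinoma in situ (5.98 ± 0.35, adjusted p = 0.00175). With the mean of its 2 probe sets the changes were 4.44 and 4.51 log2 units, so the size of the fold depends on the probe set. Its change in carcinoma in situ against normal urothelium was 0.11 ± 0.35 (adjusted p = 0.893). Both calls of Fbln2 were kept under all 16 alternative settings, with an adjusted p of at most 0.00806 against normal urothelium and 0.0490 between the lesions.

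Fbln1 encodes fibulin-1, which binds fibronectin and basement membrane proteins. Fbln1 read 7.43 and 7.43 in normal urothelium, 6.02 and 6.44 in carcinoma in situ, and 8.12 and 9.86 in invasive carcinoma. The in situ arrays were below and the invasive arrays above the normal ones without overlap, but the invasive arrays lay 1.74 apart. No comparison passed: 1.56 ± 0.55 in invasive carcinoma against normal urothelium (adjusted p = 0.112), -1.20 ± 0.55 in carcinoma in situ against normal urothelium (0.260) and 2.76 ± 0.55 between the lesions (0.0513). The last value lay just outside the threshold and passed without invasive array 1 (3.63, adjusted p = 0.0107) and without normal array 1 or array 2 (2.76, adjusted p = 0.0311 in both). Without invasive array 1 the difference of invasive carcinoma from normal urothelium passed too (2.43, adjusted p = 0.0128). Without invasive array 2 the changes were smaller and did not pass, at 0.68 against normal urothelium (adjusted p = 0.206) and 1.88 between the lesions (0.0538). Without normal array 2 and invasive array 1 Fbln1 was called in all 3 comparisons. It was higher in invasive carcinoma than in normal urothelium (2.43) and than in carcinoma in situ (3.63), and lower in carcinoma in situ than in normal urothelium (-1.20). The spread of that fit came from the 2 in situ arrays alone, the closest pair, and many more of all genes passed in it.

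The 2 invasive arrays were not alike for all members. Invasive array 2 exceeded array 1 by 1.74 for Fbln1, 0.89 for Fbln2, 0.84 for Thbs2 and 0.70 for Sparc. For Postn, Fn1 and Tnc the arrays were 0.29, 0.11 and 0.071 apart. Invasive array 2 was also the one with the larger sums of fibroblast, smooth muscle and macrophage markers. A linear sum rests most on its brightest markers. Of smooth muscle, Acta2 read 12.67 and 13.45 on the invasive arrays, Des 7.53 and 8.63, and Myh11 5.48 and 5.88. In invasive carcinoma against normal urothelium 6 of 10 fibroblast markers and 9 of 10 macrophage markers rose and none of either list fell. Among all genes 12.6% were called higher and 7.46% lower in that comparison. All 10 of 10 endothelial markers rose too (median 1.60), and of 10 smooth muscle markers 2 rose and 1 fell. The part of these cells in the rises of the matrix genes was not tested. Col1a1, a type I collagen gene, rose by 5.005 ± 0.36 (adjusted p = 0.000997) and Pdgfra, a receptor of fibroblasts, by 3.14 ± 0.62 (adjusted p = 0.0205). Dcn read 12.08 and 12.59 in invasive carcinoma against 11.79 and 11.001 in normal urothelium, a difference of 0.94 ± 0.32 that did not pass (adjusted p = 0.100).

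**Figure D4:**
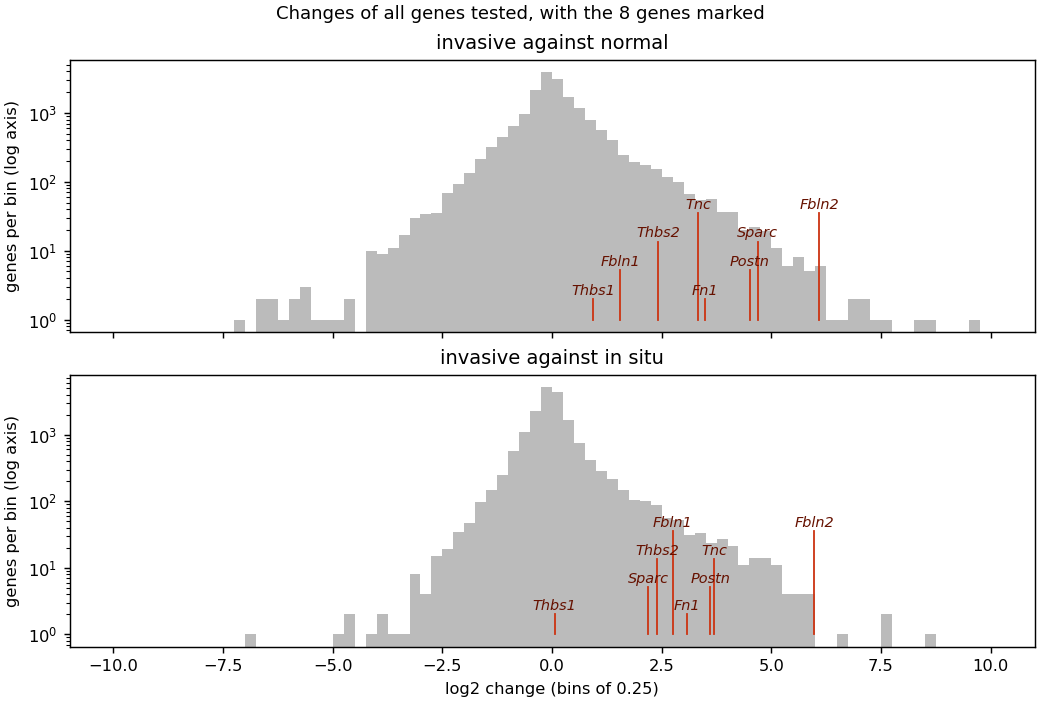
Number of genes per bin of log2 change (vertical log axis) for invasive carcinoma against normal urothelium (top) and against carcinoma in situ (bottom), with the 8 genes marked by lines. Fbln2, at 6.09 and 5.98, lies in the far right tail of both distributions, and Thbs1, at 0.93 and 0.060, nearest to 0 of the 8.

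The upstream sequences of 4 members that rose in invasive carcinoma against normal urothelium are shown. RefSeq windows of the 250 bases before a transcription start (build GRCm38.p6) were at hand for 6 of the 8 genes, at 9 listed starts. Shown are Fbln2, with the largest change (chr6:91212514-91212763, plus strand), Sparc, which rose at both steps (chr11:55420081-55420330, minus strand), Postn at its second listed start (chr3:54360857-54361106, plus strand) and Tnc at its second listed start (chr4:64046937-64047186, minus strand). Each runs 5′ to 3′ towards the start, and capitals mark matches to the searched letters on either strand.
Fbln2: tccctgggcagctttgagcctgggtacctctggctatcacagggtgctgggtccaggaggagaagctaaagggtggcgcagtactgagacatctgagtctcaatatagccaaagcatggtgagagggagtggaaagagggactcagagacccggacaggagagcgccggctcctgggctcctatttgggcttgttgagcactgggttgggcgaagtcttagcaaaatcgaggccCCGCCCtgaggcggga
Sparc: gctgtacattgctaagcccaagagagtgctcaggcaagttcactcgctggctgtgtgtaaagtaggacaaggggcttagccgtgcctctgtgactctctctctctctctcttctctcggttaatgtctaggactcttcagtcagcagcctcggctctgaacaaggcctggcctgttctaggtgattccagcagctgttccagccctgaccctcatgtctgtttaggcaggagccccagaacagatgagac
Postn: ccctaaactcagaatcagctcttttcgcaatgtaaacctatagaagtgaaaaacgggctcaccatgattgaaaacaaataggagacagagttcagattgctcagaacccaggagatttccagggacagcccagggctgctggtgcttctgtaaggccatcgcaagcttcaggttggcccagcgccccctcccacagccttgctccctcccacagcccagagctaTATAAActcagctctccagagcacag
Tnc: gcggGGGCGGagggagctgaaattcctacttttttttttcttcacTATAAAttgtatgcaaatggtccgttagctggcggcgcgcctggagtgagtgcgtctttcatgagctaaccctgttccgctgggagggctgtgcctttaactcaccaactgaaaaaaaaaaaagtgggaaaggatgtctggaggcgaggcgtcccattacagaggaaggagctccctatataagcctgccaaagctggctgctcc
All searches covered both strands, and no matches overlapped each other. The TATA box letters TATAAA were found in 3 of 6 genes, Postn, Tnc and Thbs2, and in 12.4% of 32851 RefSeq windows. In Postn they lay 26 to 21 bases before the listed start. The GC box letters GGGCGG were found in 3 of 6 genes, Tnc, Fbln2 and Fbln1, and in 32.7% of all windows. The CCAAT box, searched by the letters of its name, was found in 1 of 6, Thbs2, and in 33.8% of all windows. The AP-1 element, searched as TGANTCA, was in 0 of 6 genes and in 6.75% of all windows. The TEAD element, searched as GGAATG, was in 0 of 6 genes and in 12.6% of all windows. These counts say only which letters are in these windows. The Sparc window held none of the letters searched.

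Further probe sets gave a second reading of the same RNA for 7 of the 8 genes, all but Postn. They share their RNA with the main probe sets and are no replicates. In a test of all 34945 named probe sets together, 5 of 10 further probe sets rose in invasive carcinoma against normal urothelium and 0 fell. In carcinoma in situ against normal urothelium 0 were called, and 2 rose between the lesions. That test called 10.4%, 4.71% and 3.04% of all probe sets higher and 7.8%, 2.88% and 0.916% lower in the same comparisons. The further Fn1 probe set changed by 3.10 ± 0.28 in invasive carcinoma against normal urothelium (adjusted p = 0.00235), close to the main one. The further probe sets of Thbs2 gave 4.12 ± 0.79 (adjusted p = 0.0211) and 3.17 ± 0.63 (0.0232), both larger than the main value of 2.42. The dim further Fbln2 probe set, at 3.05 and 3.23 in normal urothelium, rose by 2.79 ± 0.46 (adjusted p = 0.0135), less than the main one. The further Tnc probe set did not pass, at 1.48 ± 0.44 in invasive carcinoma against normal urothelium (adjusted p = 0.0760) and 1.81 ± 0.44 between the lesions (0.108). Thbs1 had a steadier further probe set, which read 7.77 and 7.42 in normal urothelium, 8.01 and 7.55 in carcinoma in situ, and 8.45 and 9.85 in invasive carcinoma. It gave 1.55 ± 0.47 in invasive carcinoma against normal urothelium without passing (adjusted p = 0.0798), and its normal arrays were 0.35 apart, not 3.63. For Sparc 1 further probe set gave 4.40 ± 0.52 (adjusted p = 0.00519) and the other -0.18 ± 0.21 (0.633), and Fbln1 likewise had 1 at 1.72 ± 0.65 (0.138) and 1 at 0.029 ± 0.22 (0.948). Those probe sets of Sparc and Fbln1 with changes near 0 read between 5.88 and 6.85 on all arrays, near the array medians.

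**Figure D5:**
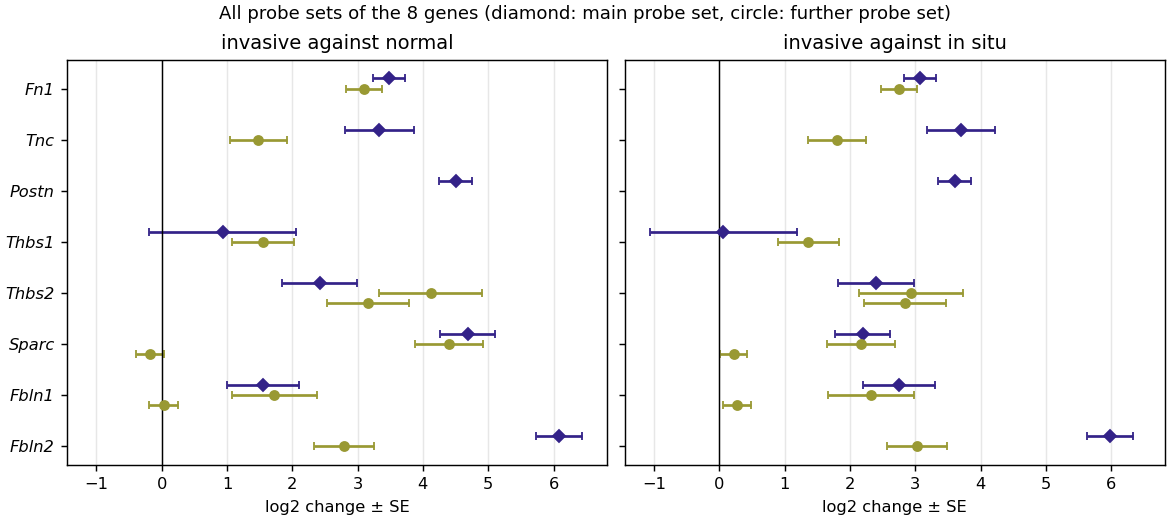
Log2 change with its standard error for all 18 probe sets of the 8 genes, in invasive carcinoma against normal urothelium (left) and against carcinoma in situ (right). Diamonds mark the main probe set and circles the further ones. Between the lesions 10 of 10 further probe sets lie above 0, but those of a gene differ in size, as for Fbln2 (5.98 and 3.03). Values near 0 are those of 1 further probe set of Sparc (0.22 ± 0.21), 1 of Fbln1 (0.27 ± 0.22) and the main one of Thbs1 (0.060).

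The genes with profiles most like each member were found by the root mean square difference in log2 signal over the 6 arrays, after each gene's own mean was subtracted, among 16304 genes. This is a description of 6 arrays that share 3 groups. Nearest to Tnc was Pdgfra, at 0.16 log2 units, followed by Pla1a (0.26) and Timp3 (0.30), where Tnc itself deviated from its mean by 1.73. Nearest to Fn1 were Cthrc1 (0.18), Axl (0.18) and Kdelr3 (0.21), and nearest to Postn Dbn1 (0.19), Gpm6b (0.28) and Ifit3 (0.29). Thbs2 ran closest to Tmem119 (0.14), Lgmn (0.16) and Ccl6 (0.22). Sparc ran closest to Apoe (0.20), Dkk2 (0.30) and Ppic (0.31). Fbln2 lay nearest to Hs6st2 (0.26), Mmp2 (0.41) and Ankrd1 (0.42), and Fbln1 to Fndc1 (0.31), Aebp1 (0.35) and Ptgis (0.36). Thbs1 lay nearest to Plat (0.30), Sdcbp (0.39) and Lrrc59 (0.42), which shared its gap between the normal arrays: Plat read 10.97 and 8.17 there. Among the members themselves Fn1 and Postn were the closest pair (0.42), followed by Fn1 and Tnc (0.46), and Thbs1 and Fbln2 the farthest (2.81).

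Other genes of the same families and pathways were read from lists. For comparison, limma called 12.6% of all genes higher and 7.46% lower in invasive carcinoma against normal urothelium. In carcinoma in situ against normal urothelium the shares were 5.74% and 3.04%, and between the lesions 4.18% and 1.31%. Of 18 further matricellular genes 9 rose and 1 fell in invasive carcinoma against normal urothelium, 0 rose and 2 fell in carcinoma in situ against normal urothelium, and 8 rose and 0 fell between the lesions. The list medians were 1.26, -0.053 and 1.65. Ccn2, a connective tissue growth factor gene, rose by 5.54 ± 0.60 in invasive carcinoma against normal urothelium (adjusted p = 0.00321) and by 5.07 ± 0.60 against carcinoma in situ (0.0103). Its relative Ccn1 rose by 4.92 ± 0.25 (adjusted p = 0.000523) and 5.01 ± 0.25 (0.00114) in the same comparisons. Fstl1, a SPARC family member, rose by 4.50 ± 0.46 (adjusted p = 0.00270) and Thbs3, a thrombospondin, by 3.25 ± 0.28 (0.00172) in invasive carcinoma against normal urothelium. Smoc1, another SPARC family member, was lower in both lesions than in normal urothelium. It read 7.38 and 7.47 in carcinoma in situ and 7.56 and 7.54 in invasive carcinoma, against 10.40 and 10.22 in normal urothelium. Smoc1 fell by 2.89 ± 0.16 in carcinoma in situ (adjusted p = 0.00330) and by 2.76 ± 0.16 in invasive carcinoma (adjusted p = 0.000637), the 1 fall of the list there, named after its value was seen. Tnxb, tenascin-X, fell by 1.23 ± 0.24 in carcinoma in situ against normal urothelium (adjusted p = 0.0370).

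Of 17 measured genes of elastic fibres and microfibrils 10 rose and 0 fell in invasive carcinoma against normal urothelium, 2 rose and 0 fell in carcinoma in situ, and 8 rose and 0 fell between the lesions (medians 1.98, 0.093 and 1.51). Ltbp2, a latent TGF-beta binding protein of microfibrils, rose by 4.45 ± 0.39 against normal urothelium (adjusted p = 0.00175) and 3.60 ± 0.39 against carcinoma in situ (0.00781). The emilin genes Emilin2 (2.43 ± 0.21, adjusted p = 0.00162) and Emilin1 (2.38 ± 0.40, adjusted p = 0.0123) rose in invasive carcinoma against normal urothelium. Mfap5 (3.73 ± 0.74, adjusted p = 0.0494) and Efemp1 (2.73 ± 0.33, adjusted p = 0.0113), a fibulin family member, rose between the lesions. The rises in carcinoma in situ were Mmrn2 (2.42 ± 0.26, adjusted p = 0.00865), an endothelial matrix protein, and Ltbp4 (1.004 ± 0.16, adjusted p = 0.0212). Beside Mmrn2, 5 of 10 endothelial markers rose in that comparison, and their part was not tested. Of 14 basement membrane and plasma-type glycoproteins 6 rose in invasive carcinoma against normal urothelium, 1 rose in carcinoma in situ and 2 rose between the lesions, with 0 falls in each (medians 0.52, 0.44 and 0.30). The 1 rise of 14 in carcinoma in situ was near the 5.74% of all genes called higher there. Nid1, nidogen-1, rose by 3.84 ± 0.25 in invasive carcinoma against normal urothelium (adjusted p = 0.000830), and Ecm1 rose at both steps, by 1.05 ± 0.16 in carcinoma in situ against normal urothelium (0.0202) and 1.51 ± 0.16 between the lesions (0.00777).

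Of 18 measured receptors of these glycoproteins 6 rose in invasive carcinoma against normal urothelium, 1 rose in carcinoma in situ and 2 rose between the lesions, with 0 falls in each (medians 0.90, 0.062 and 0.80). Here too the 1 rise of 18 in carcinoma in situ was near the share of all genes, 5.74%. The integrin gene Itgb8 read 6.44 and 7.20 in invasive carcinoma, against 3.005 and 2.72 in carcinoma in situ, and rose by 3.95 ± 0.33 (adjusted p = 0.00384). Itgb3, for a subunit of the vitronectin receptor, rose by 1.62 ± 0.23 in invasive carcinoma against normal urothelium (adjusted p = 0.00732) and 1.37 ± 0.23 against carcinoma in situ (0.0288). Itga9, part of a tenascin-C receptor, rose by 1.54 ± 0.36 against normal urothelium (adjusted p = 0.0333). Stab1, a scavenger receptor of macrophages and endothelium that takes up SPARC, rose in invasive carcinoma (3.71 ± 0.34, adjusted p = 0.00194) and in carcinoma in situ (2.40 ± 0.34, adjusted p = 0.0160), both against normal urothelium. Macrophage markers rose beside it, 9 and 2 of 10 in the same comparisons, as did endothelial markers, 10 and 5 of 10. The part of either was not tested. Of 14 measured genes that process or crosslink matrix 11 rose and 0 fell in invasive carcinoma against normal urothelium. In carcinoma in situ against normal urothelium 0 were called, with changes from -2.22 to 2.59. Between the lesions 8 rose and 0 fell (medians 2.57, -0.031 and 1.83 in the 3 comparisons). Lox, the collagen crosslinking enzyme lysyl oxidase, rose by 4.72 ± 0.21 (adjusted p = 0.000432) and Pcolce, an enhancer of collagen processing, by 3.98 ± 0.40 (0.00249) in invasive carcinoma against normal urothelium. Loxl1, a relative of Lox for elastic fibres, rose by 5.39 ± 0.50 between the lesions (adjusted p = 0.00484). In carcinoma in situ against normal urothelium Loxl1 changed by -2.22 ± 0.50 (adjusted p = 0.0516) and Adamts1 by 2.59 ± 0.58 (0.0517), and neither passed.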

How the data were processed

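Per the labels' protocols, laser-captured bladder cells gave 100 ng of RNA per array for Affymetrix 3' expression arrays. The authors deposited log2 values, and Partek and RMA were used per the submitters' processing notes. RMA equalizes the distributions of all arrays, so differences in total RNA are removed, and it compresses small signals. The values were used as deposited. The authors' deposited table of fold changes was not used. The genome build behind the authors' probe sets is not given in the sources used here, and the promoter windows and gene table are of GRCm38.p6.

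Of 45101 probe sets 34958 had 1 gene symbol, 932 several and 9211 none in the array annotation. Leaving out control probe sets left 34945, for 18193 genes, each read from its brightest probe set on average. The Entrez identifiers of 34741 of these probe sets were found in the RefSeq gene table of GRCm38.p6. One fit with 3 group means and no block was made over all 6 arrays in limma 3.58.1 under R 4.3.3 (3 residual and 2.69 prior degrees of freedom). P-values are two-sided and Benjamini-Hochberg adjusted, and dim probe sets were kept. Changes are differences of group means, with the standard error of the fit.

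The 10 genes, the lists and the alternatives were chosen with earlier results of these data known. All members were named. From each list, in each comparison, at most 4 called genes of largest change could be named (at most 2 as values where none was called), and 3 genes most like each member, passing over provisional symbols. Motifs were chosen for this description. The promoter, list and likeness counts carry no test. The number of arrays, 2 per group, limits the precision.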

Additional observations from a re-analysis of the deposited data

How the results depend on the processing

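The changes and calls of the 8 genes at their main probe sets were recomputed under 16 alternatives. Those of the lists, markers and further probe sets were not. Of 384 values, 314 kept their direction and side of the threshold, 35 lost a call, 21 gained one and 14 changed sign. Of 12 calls, 5 were kept under all 16: Fbln2 in both comparisons of invasive carcinoma, and Fn1, Postn and Sparc in invasive carcinoma against normal urothelium. No sign changed for a value called in the main analysis. Leaving out 1 array at a time gave 8 of the 14 sign changes. Against normal urothelium, Thbs1 then ranged from -0.88 to 2.75 in invasive carcinoma. In carcinoma in situ against normal urothelium the ranges were -0.94 to 2.69 for Thbs1, -0.82 to 0.86 for Thbs2, -0.19 to 0.41 for Fbln2 and -1.21 to 0.48 for Tnc, each with its ends at the 2 normal arrays left out in turn. Thbs2 was also at -0.0032 there without in situ array 1. Between the lesions Thbs1 ranged from -0.38 to 0.51, and was at -0.13 without invasive array 1. With the mean of the probe sets the sign turned for Fbln2 in carcinoma in situ against normal urothelium (-0.064). None of these 9 values of turned sign passed. With normal array 2 and invasive array 1 left out, a setting chosen after seeing the data, 5 turned and 3 of them passed: Thbs1 in invasive carcinoma (-1.07) and carcinoma in situ (-0.94) and Thbs2 in carcinoma in situ (-0.82), all against normal urothelium. The other 2, Fbln2 in carcinoma in situ against normal urothelium (-0.19) and Thbs1 between the lesions (-0.13), did not pass. Without these 2 arrays the spread came from the 2 in situ arrays alone, the closest pair, and many more of all genes passed. Counts of the 8 genes under this setting are therefore not set beside those of the main analysis. In carcinoma in situ against normal urothelium 0 of 8 were called with only the 4 arrays of the comparison (3 at an unadjusted p under 0.05) and 0 of 8 with the in situ arrays averaged to 1 sample (1 at an unadjusted p under 0.05). Between the lesions the averaged in situ arrays left 1 of 8. Leaving out 1 array at a time gave 0 to 3 of 8 in carcinoma in situ against normal urothelium (at the counts of 0, 1 to 3 of 8 at an unadjusted p under 0.05), 1 to 7 of 8 between the lesions and 4 to 7 of 8 in invasive carcinoma against normal urothelium, with the lone array of a group assumed to vary like the others.

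The titles number the arrays 1 and 2 in each group, without saying that a number marks a shared animal or day. With the number as a replicate block, 6 of 8 genes were called in invasive carcinoma against normal urothelium, 1 of 8 in carcinoma in situ and 5 of 8 between the lesions, as without it. In the last, Fbln1 gained a call (adjusted p = 0.0348) and Sparc lost its call (adjusted p = 0.0645). The deviations of same-numbered arrays correlated over genes at 0.37 between invasive carcinoma and normal urothelium, -0.39 between carcinoma in situ and normal urothelium and -0.34 between the lesions, so the numbers were not taken as pairs.

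Among all 18193 genes, 3652 were called in invasive carcinoma against normal urothelium, 1597 in carcinoma in situ against normal urothelium and 999 between the lesions. With only the 4 arrays of a comparison the counts were 1832, 947 and 2493. With the in situ arrays averaged they were 1832, 0 (2320 at an unadjusted p under 0.05) and 55. With all named probe sets adjusted together, 6368 and 2653 of 34945 probe sets were called in the first 2 comparisons, counts of probe sets and not of genes. Without normal array 2 and invasive array 1 the counts of genes were 8165, 6352 and 5897, in a fit whose spread came from the 2 in situ arrays alone, the closest pair. Leaving out 1 array at a time gave 1637 to 5699, 0 to 4196 and 50 to 2493, with 0 in carcinoma in situ against normal urothelium without in situ array 1 (2347 at an unadjusted p under 0.05) or array 2 (2443). The cause of these shifts was not tested. No detection calls were used, so it is not known here which low signals lay above background.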
